A study of Arabidopsis thaliana with 20 samples.

Results

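The regulators of anthocyanin synthesis described here are 10 Arabidopsis thaliana genes, chosen by locus. They are the MYB activators PAP1 (AT1G56650), PAP2 (AT1G66390), MYB113 (AT1G66370) and MYB114 (AT1G66380), the bHLH proteins TT8 (AT4G09820), EGL3 (AT1G63650) and GL3 (AT5G41315), the WD40 protein TTG1 (AT5G24520), and the small MYB repressors MYBL2 (AT1G71030) and CPC (AT2G46410). These are 10 of the 25410 genes that the array probes could be matched to. They are read by 11 probes, 1 for each gene except EGL3, which has 2. Of the 10 genes, 6 gave signal well above background throughout at least 1 group of arrays and were tested (PAP1, TT8, EGL3, TTG1, MYBL2 and CPC), and 4 did not (PAP2, MYB113, MYB114 and GL3). TT8 and EGL3 met this condition only in droughted groups. For TT8 these were bam1 leaves and the stomata of both genotypes, and for EGL3 the stomata of both genotypes. The condition therefore favoured a higher droughted signal for TT8 and EGL3, and their drought tests were not independent of it. The question asked of them was which ones rose in which tissue under drought.

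RNA came from total leaf tissue and from a stomata-enriched epidermal fraction made in a blender, called stomata here, of wild-type Col-0 and of bam1, a single T-DNA insertion line in BAM1, which encodes a beta-amylase. The plants grew on soil and were either kept under control conditions or given mild drought for 5 days, and each biological replicate pooled 5 to 8 plants. The labels give the plants as 5 weeks old, whereas the description of the treatment gives 6 weeks. There were 20 one-colour arrays in 8 groups: 3 arrays each for Col-0 control leaves, bam1 control leaves, bam1 droughted leaves and Col-0 control stomata, and 2 arrays each for Col-0 droughted leaves, Col-0 droughted stomata, bam1 control stomata and bam1 droughted stomata.

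Between 63.2% and 75.4% of spots were well above background on an array, and arrays of one group correlated at r of 0.971 to 0.988. Guard cell markers checked the tissue label: all 10 of 10 were higher in stomata than in leaves of control plants in both genotypes, by a median log2 difference of 3.67 in Col-0 and 2.64 in bam1. The peels were not pure guard cells, since the mesophyll markers were not called between tissues (0 of 5 in either genotype) and vascular markers were present in both tissues. Of 5 epidermis markers, 1 was called higher in control stomata of Col-0 and 2 in those of bam1. Their median log2 differences were 0.96 and 0.94. Of 6 vascular markers, SUC2 and APL were called higher in control stomata than in control leaves of both genotypes, SWEET12 and XCP1 lower, and SWEET11 and IRX3 were not called, with a median log2 difference of -0.39 in Col-0 and -0.21 in bam1. Their summed log2 signal was nevertheless higher in control stomata. It was 16.1 to 16.5 against 14.8 to 15.0 in control leaves of Col-0, and 15.9 to 16.6 against 14.7 to 15.2 in bam1. The genotype label of 1 array did not match its BAM1 signal. Replicate 2 of the droughted Col-0 stomata had a BAM1 log2 signal of 7.81, against 13.5 on replicate 1 of that group and 13.5 to 14.0 in Col-0 control stomata, while the 10 bam1 arrays spanned 6.45 to 9.71. This replicate is called the doubtful array, and the drought values of Col-0 stomata that follow are given with and without it.

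In Arabidopsis, anthocyanin synthesis is switched on by a complex of 3 kinds of protein. An R2R3-MYB protein such as PAP1 binds a bHLH protein such as TT8, EGL3 or GL3, and the WD40 protein TTG1 holds the pair together. The complex activates the late genes of the pathway, those for dihydroflavonol reductase (DFR), leucoanthocyanidin dioxygenase (LDOX) and the enzymes that decorate the pigment. MYBL2 and the R3-MYB protein CPC oppose it by occupying the bHLH partner. Related complexes with the same bHLH and WD40 proteins set the fate of trichomes and other epidermal cells, where CPC also acts as a repressor.

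PAP1 and TT8 were called higher under drought in leaves and in stomata of both genotypes, the only 2 of the 6 tested regulators that were. For TT8 the calls depended on the processing, and with a normexp background correction only that in bam1 stomata remained. MYBL2 was called lower in Col-0 leaves only. Its log2 changes in bam1 leaves, Col-0 stomata and bam1 stomata were -0.85, -0.77 and -0.50, each a fall of less than 2-fold. A change was called when its Benjamini-Hochberg adjusted p in limma, over all tested probes, was under 0.05 and its size at least 2-fold, and the adjusted p values below are from that test. In Col-0 leaves 3 of the 6 tested regulators were called, 2 higher and 1 lower, where 2.09% of all tested probes were called higher and 3.37% lower. In bam1 leaves 2 of 6 were called higher, against 1.43% of all probes. In Col-0 stomata 2 of 6 were called higher, against 1.78%, and in bam1 stomata 2 of 6, against 2.71%. TT8, counted as higher each time, was tested only because droughted groups met the background condition, so that condition favoured these counts. In Col-0 stomata the share of called probes that were higher was 52.3% and became 37.3% when arrays were scaled by their 75th percentile, with PAP1 and TT8 called higher under both scalings. Counts of the regulators in Col-0 stomata were the same without the doubtful array.

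**Figure D1:**
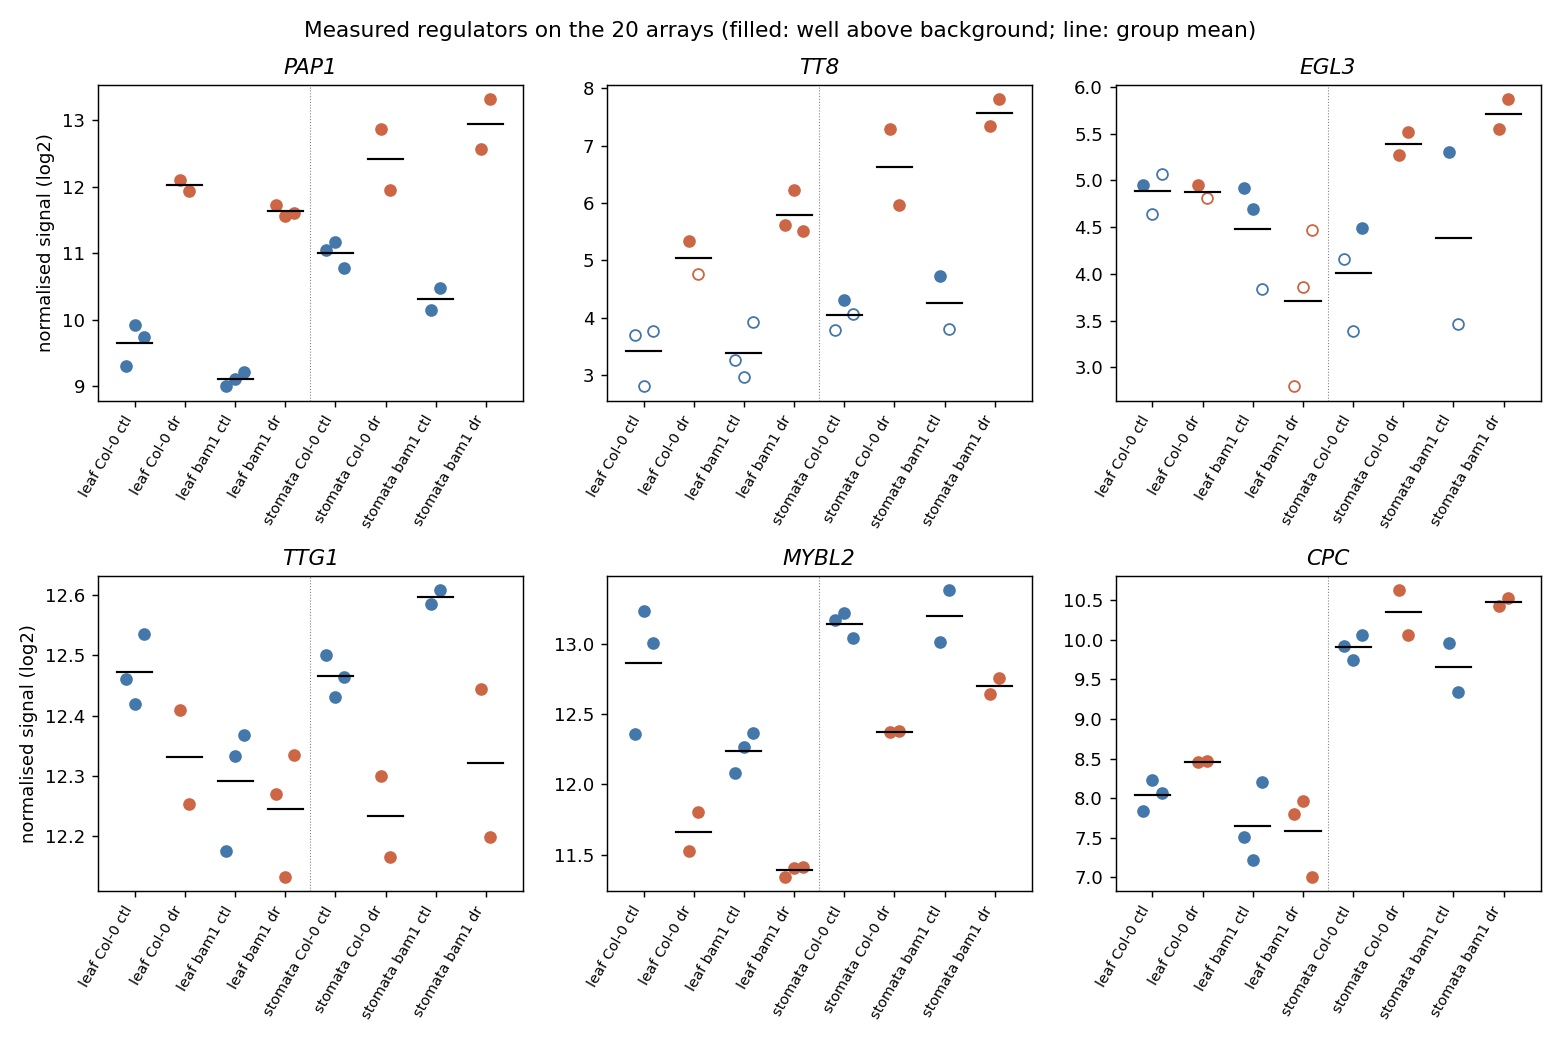
Normalised log2 signal of the 6 measured regulators on each of the 20 arrays, by group (ctl, control; dr, drought); blue points are control and orange points drought arrays, filled where the spot was well above background, and black lines are group means. PAP1 and TT8 lie higher in each droughted group than in its control group, CPC separates the tissues, and the axis of TTG1 spans only 12.13 to 12.61.

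PAP1, a MYB protein named for production of anthocyanin pigment, was well above background on 20 of 20 arrays. Its log2 signals in Col-0 leaves were 9.30, 9.92 and 9.73 in control and 12.11 and 11.94 after drought. In bam1 leaves they were 8.997, 9.10 and 9.22 in control and 11.72, 11.56 and 11.61 after drought. Every droughted leaf array thus lay above every control leaf array. Drought raised PAP1 5.18-fold in Col-0 leaves (log2 change 2.37 ± 0.26, SE; adjusted p = 6.22e-05) and 5.76-fold in bam1 leaves (2.53 ± 0.24; adjusted p = 1.78e-05). Groups that did not overlap were common in these comparisons, at 48% of tested probes in Col-0 leaves and 35.5% in bam1 leaves.

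In stomata PAP1 started from a higher level. Its log2 signals were 11.05, 11.18 and 10.78 in Col-0 control stomata and 12.88 and 11.96 after drought, the second of these on the doubtful array. In bam1 stomata they were 10.15 and 10.48 in control and 12.58 and 13.32 after drought. Again no droughted array overlapped its controls, as for 41.2% of probes in Col-0 stomata and 51.9% in bam1 stomata. The rise was 2.67-fold in Col-0 stomata (log2 change 1.42 ± 0.26; adjusted p = 0.00485) and 6.21-fold in bam1 stomata (2.63 ± 0.29; adjusted p = 1.03e-04). Without the doubtful array, the log2 change in Col-0 stomata was 1.88 (adjusted p = 0.0015), and without the other droughted array it was 0.96 and was no longer called (adjusted p = 0.0853); the remaining droughted array is then assumed to vary like the other groups.

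The level of PAP1 rose in the order bam1 control leaves, Col-0 control leaves, bam1 control stomata, Col-0 control stomata, bam1 droughted leaves, Col-0 droughted leaves, Col-0 droughted stomata and bam1 droughted stomata. The ranges of neighbouring groups in this order were separate up to Col-0 droughted leaves, while those of the 3 highest groups overlapped one with the next. Without the doubtful array, Col-0 droughted stomata stood at 12.88, above both arrays of Col-0 droughted leaves and within the range of bam1 droughted stomata. Control stomata had 2.55-fold the PAP1 signal of control leaves in Col-0 (log2 difference 1.35 ± 0.24; adjusted p = 2.46e-04) and 2.32-fold in bam1 (1.21 ± 0.26; adjusted p = 0.00185). In bam1 the log2 difference was 0.73 with the slide as a block and was not called (adjusted p = 0.0746), and in Col-0 it was 1.75 on the slide that held both groups. In bulk RNA, a different share of cells that use a gene and a different amount of RNA per cell cannot be told apart, here and in every comparison of stomata with leaves.

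TT8, a bHLH partner of PAP1 that also regulates its own gene, was well above background on 10 of 20 arrays. In control leaves no array measured it. The log2 signals were 3.70, 2.81 and 3.77 in Col-0 control leaves and 5.34 and 4.76 after drought, with 1 of 2 droughted arrays well above background. In bam1 leaves they were 3.26, 2.96 and 3.93 in control and 5.62, 6.23 and 5.52 after drought, with 3 of 3 droughted arrays well above background. The measured rise was 3.08-fold in Col-0 leaves (log2 change 1.62 ± 0.43; adjusted p = 0.0205) and 5.31-fold in bam1 leaves (2.41 ± 0.38; adjusted p = 8.38e-04). It was smaller with a normexp background correction, at log2 changes of 0.28 and 0.52. Folds written below as at least a value use raised control signals. Each was raised to at least the lowest signal well above background on its array. Control signals already above that level, as those of TT8 in leaves were, stayed as measured. Such a fold is therefore not a strict lower limit.

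Support for the rise of TT8 in leaves depended on single arrays and settings. In Col-0 leaves the call was lost without control replicate 2 (log2 change 1.31; adjusted p = 0.0707) or without drought replicate 1 (1.34; adjusted p = 0.176), and on the 1 slide that held both groups the log2 difference was 1.63. In bam1 leaves the log2 change was 1.72 with the slide as a block and was not called (adjusted p = 0.0592), and it was 1.59 on the slide that held both groups.

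In stomata TT8 reached its highest signals. They were 3.79, 4.30 and 4.07 in Col-0 control stomata, with 1 of 3 arrays well above background, and 7.29 and 5.97 after drought, the second again on the doubtful array. In bam1 stomata they were 4.73 and 3.80 in control, with 1 of 2 arrays well above background, and 7.34 and 7.81 after drought. All 4 droughted stomata arrays were well above background and above every control array. Droughted and control groups did not overlap for 41.2% of tested probes in Col-0 stomata and 51.9% in bam1 stomata. TT8 rose 5.96-fold in Col-0 stomata (log2 change 2.58 ± 0.43; adjusted p = 0.00242) and 9.93-fold in bam1 stomata (3.31 ± 0.47; adjusted p = 6.1e-04). With the doubtful array left out, the log2 change in Col-0 stomata was 3.23 (adjusted p = 0.00151), and without the other droughted array it was 1.92 (adjusted p = 0.0477). A normexp background correction gave smaller changes, at 0.28, 0.52, 0.89 and 1.31 for Col-0 leaves, bam1 leaves, Col-0 stomata and bam1 stomata, and only the last was then called.

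TT8 in control plants was not called different between stomata and leaves, at a log2 difference of 0.63 ± 0.38 in Col-0 (adjusted p = 0.184) and 0.88 ± 0.43 in bam1 (adjusted p = 0.106). Scaling by the 75th percentile gave 1.41 (adjusted p = 0.0208) and 1.68 (adjusted p = 0.0175), both called. In the order of its group means, the 4 control groups came first and the 4 droughted groups last, with Col-0 droughted leaves lowest and bam1 droughted stomata highest among the latter.

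**Figure D2:**
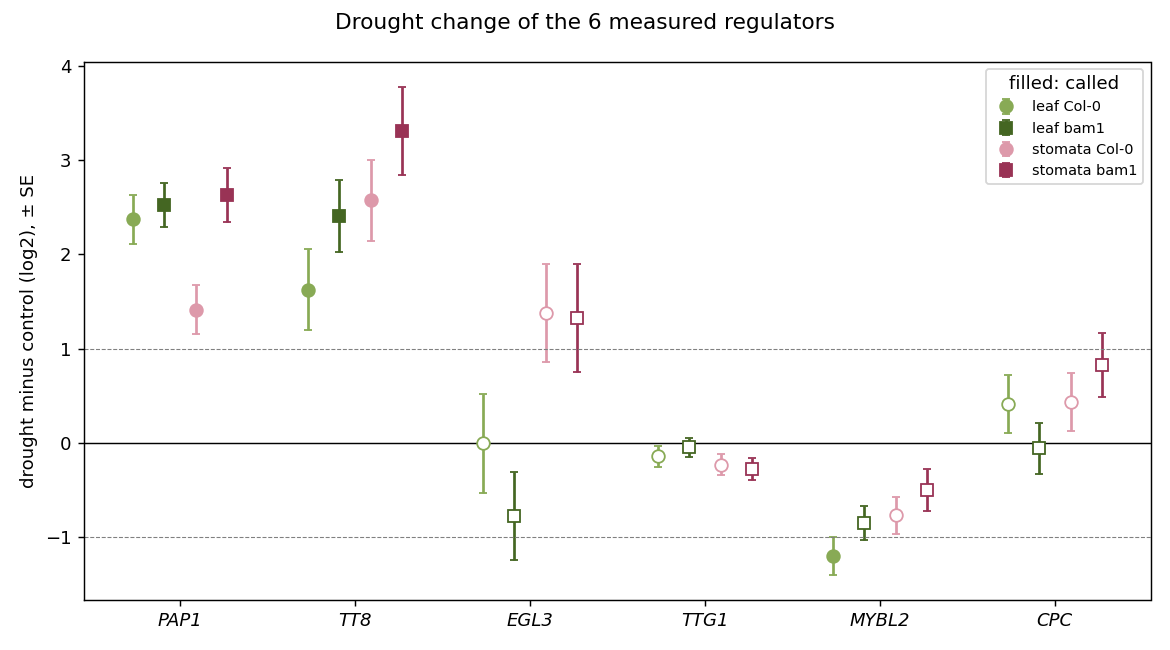
Log2 drought change (drought minus control, ± SE) of the 6 measured regulators for both tissues of Col-0 and bam1; filled symbols passed the call, open symbols did not, and dashed lines mark 2-fold. PAP1 and TT8 are filled in all 4 comparisons, MYBL2 only in Col-0 leaves, and EGL3 is near 0 or below in leaves and above 1 in stomata without passing the call.

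EGL3, a bHLH protein that can stand in for TT8 and that also acts in trichomes and root hairs, was well above background on 10 of 20 arrays and passed no test. Its log2 signals were 4.95, 4.64 and 5.07 in Col-0 control leaves and 4.95 and 4.81 after drought. In bam1 leaves they were 4.92, 4.69 and 3.83 in control and 2.80, 3.86 and 4.47 after drought, and none of the 3 droughted arrays was well above background. The leaf groups overlapped in both genotypes, with log2 changes of -0.0050 ± 0.52 (adjusted p = 0.997) and -0.77 ± 0.47 (adjusted p = 0.313). The first of these was so near 0 that its sign turned under several settings.

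In stomata the signals of EGL3 were 4.16, 3.39 and 4.49 in Col-0 control and 5.27 and 5.52 after drought. They were 5.30 and 3.46 in bam1 control stomata and 5.55 and 5.87 after drought. All 4 droughted stomata arrays were well above background, against 1 of 3 and 1 of 2 control arrays. The groups did not overlap, as for 41.2% of tested probes in Col-0 stomata and 51.9% in bam1 stomata. The log2 changes were 1.38 ± 0.52 in Col-0 (adjusted p = 0.122; 95% interval 0.27 to 2.50) and 1.33 ± 0.57 in bam1 (adjusted p = 0.154; 0.10 to 2.55), so neither was called. Once the doubtful array was left out, the first was 1.26 (adjusted p = 0.286). Without bam1 control replicate 1, the brighter of the 2 control arrays, the second was 2.25 and was called (adjusted p = 0.021). The other probe for EGL3 was well above background on 2 of 20 arrays and was not tested. Its log2 signals were 3.53, 3.21 and 4.41 in Col-0 control stomata and 4.17 and 3.47 after drought, the last on the doubtful array. In bam1 stomata they were 5.50 and 3.94 in control and 4.81 and 4.26 after drought. With this probe the groups overlapped in both genotypes.

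GL3, the bHLH protein closest to EGL3, was not well above background on any of 20 arrays, with log2 signals of 2.42 to 3.26. The same held for 3 of the 4 MYB activators. PAP2 lay between 2.41 and 3.14 and MYB114 between 2.46 and 3.99 on 20 arrays, and MYB113 between 2.81 and 3.75 on 19 arrays, 1 spot of bam1 control stomata having been set aside as an outlier. MYB113, MYB114 and PAP2 are consecutive loci on chromosome 1. No change can be given for these 4 genes, and a low transcript level cannot be told from a probe that binds poorly. The probe sequences were not analysed here, so cross-hybridisation among the 4 similar MYB genes, PAP1 included, was not tested.

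**Figure D3:**
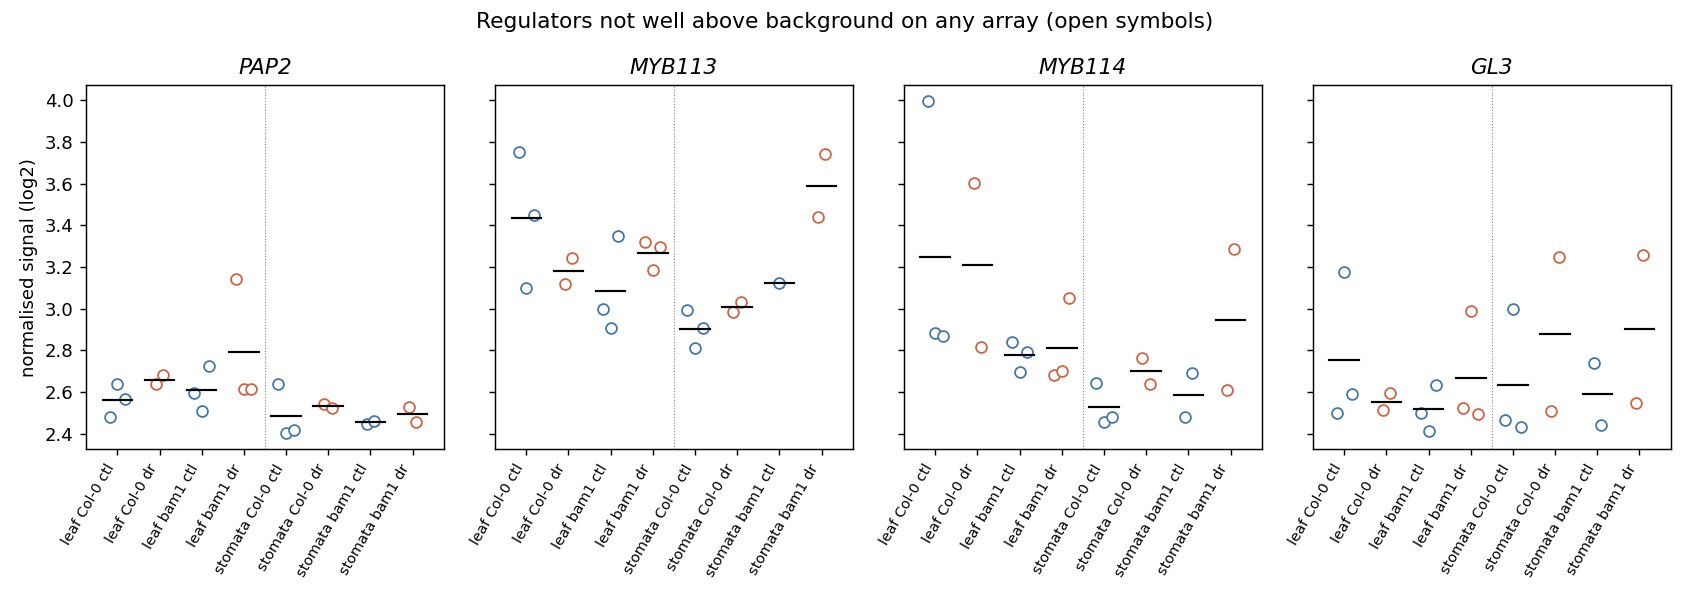
Normalised log2 signal of PAP2, MYB113, MYB114 and GL3 by group and array (ctl, control; dr, drought; blue, control; orange, drought; black lines, group means). All symbols are open because no spot was well above background, and the 4 genes lie between 2.41 and 3.99.

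TTG1, the WD40 scaffold, varied least of the 6 tested regulators over the arrays. It was well above background on 20 of 20 arrays, with log2 signals from 12.13 to 12.61. Drought changes were -0.14 ± 0.11 in Col-0 leaves, -0.046 ± 0.098 in bam1 leaves, -0.23 ± 0.11 in Col-0 stomata and -0.27 ± 0.12 in bam1 stomata, with adjusted p values of 0.443, 0.818, 0.224 and 0.162. The 95% intervals of these log2 changes all lay between -0.53 and 0.16. Without the doubtful array the change in Col-0 stomata was -0.16 (adjusted p = 0.519).

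MYBL2, an R3-MYB-related repressor that binds TT8 and EGL3, was well above background on 20 of 20 arrays. Its log2 signals were 12.36, 13.23 and 13.003 in Col-0 control leaves and 11.52 and 11.80 after drought. In bam1 leaves they were 12.08, 12.26 and 12.36 in control and 11.34, 11.41 and 11.42 after drought. No droughted leaf array reached the lowest control array of its genotype. Groups did not overlap for 48% of tested probes in Col-0 leaves and 35.5% in bam1 leaves. MYBL2 fell 2.3-fold in Col-0 leaves (log2 change -1.20 ± 0.20; adjusted p = 0.00122). In bam1 leaves the change was -0.85 ± 0.18 (adjusted p = 0.00607), which passed the p threshold at less than 2-fold. Within the 1 slide that held both groups the log2 difference was -0.83 in Col-0 leaves and -0.95 in bam1 leaves.

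In stomata MYBL2 had log2 signals of 13.17, 13.22 and 13.04 in Col-0 control and 12.37 and 12.38 after drought, and of 13.01 and 13.38 in bam1 control and 12.64 and 12.76 after drought. The droughted arrays were again below the controls, where 41.2% of tested probes in Col-0 stomata and 51.9% in bam1 stomata did not overlap. The changes were -0.77 ± 0.20 in Col-0 (adjusted p = 0.0288) and -0.50 ± 0.22 in bam1 (adjusted p = 0.165), both under 2-fold. Without the doubtful array, the first was -0.77 (adjusted p = 0.0897). In control plants MYBL2 was 1.95-fold higher in stomata than in leaves of bam1 (log2 difference 0.96 ± 0.20; adjusted p = 0.00143), just under the 2-fold limit, and in Col-0 the difference was 0.28 ± 0.18 (adjusted p = 0.206). The bam1 difference passed the 2-fold limit without control stomata replicate 1 (1.15; adjusted p = 0.00351) or without control leaf replicate 3 (1.02; adjusted p = 0.00241).

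CPC, the single-repeat MYB repressor that moves between epidermal cells, separated the tissues rather than the treatments. Its log2 signals were 7.84, 8.24 and 8.06 in Col-0 control leaves and 9.92, 9.75 and 10.06 in Col-0 control stomata. In bam1 control plants they were 7.50, 7.22 and 8.21 in leaves and 9.96 and 9.34 in stomata. Stomata had 3.65-fold the leaf signal in Col-0 (log2 difference 1.87 ± 0.27; adjusted p = 5.58e-05) and 4.02-fold in bam1 (2.01 ± 0.31; adjusted p = 1.23e-04). With the slide as a block the bam1 difference was 1.27 (adjusted p = 0.0262), and on the slide that held both Col-0 groups it was 2.08. Only PAP1 and CPC of the 6 tested regulators were called between the tissues in control plants, both higher in stomata, where 11.9% of all probes were called higher in Col-0 and 11% in bam1.

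Drought did not move CPC past the call. After drought its log2 signals were 8.46 and 8.46 in Col-0 leaves, 7.79, 7.96 and 7.004 in bam1 leaves, 10.63 and 10.06 in Col-0 stomata, and 10.43 and 10.53 in bam1 stomata. The changes were 0.42 ± 0.31, -0.057 ± 0.27, 0.44 ± 0.31 and 0.83 ± 0.34 in that order, with adjusted p values of 0.409, 0.927, 0.432 and 0.129. With the doubtful array left out, the change in Col-0 stomata was 0.72 (adjusted p = 0.275).

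Whether the drought response of a regulator differed between tissues was tested as a difference of differences, stomata minus leaf. None of the 6 was called in either genotype, where 1.52% of all probes were called in Col-0 and 0.0685% in bam1. The difference for PAP1 in Col-0 was -0.96 ± 0.37 on the log2 scale (adjusted p = 0.188), which became -0.50 without the doubtful array (adjusted p = 0.476). In bam1 it was 0.11 ± 0.37 (adjusted p = 0.977). For TT8 the differences were 0.95 ± 0.61 in Col-0 (adjusted p = 0.426; 95% interval -0.34 to 2.25) and 0.90 ± 0.61 in bam1 (adjusted p = 0.726; -0.39 to 2.20). Once the doubtful array was left out, the first was 1.61 (adjusted p = 0.178). EGL3 had the widest gaps, at 1.39 ± 0.74 in Col-0 (adjusted p = 0.332; without that array 1.26, adjusted p = 0.46) and 2.098 ± 0.74 in bam1 (adjusted p = 0.357; 95% interval 0.52 to 3.68). MYBL2 had 0.43 ± 0.28 in Col-0 (adjusted p = 0.443; without that array 0.43, adjusted p = 0.521) and 0.35 ± 0.28 in bam1 (adjusted p = 0.792).

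The response did not differ between genotypes past the call either, where 0.00979% of all probes were called in leaves and 0.0163% in stomata. For PAP1, the drought change in bam1 minus that in Col-0 was 0.15 ± 0.35 in leaves (adjusted p = 0.887; 95% interval -0.60 to 0.91). In stomata it was 1.22 ± 0.39 (adjusted p = 0.728; 0.38 to 2.05), and 0.76 without the doubtful array (adjusted p = 0.762). The leaf value for TT8 was 0.78 ± 0.57 (adjusted p = 0.598). Its value in stomata was 0.74 ± 0.63 with all arrays (adjusted p = 1) and 0.078 without that array (adjusted p = 0.996). At matched tissue and treatment, none of the 6 regulators was called between bam1 and Col-0. For PAP1 the log2 difference, bam1 minus Col-0, was -0.55 ± 0.24 in control leaves (adjusted p = 0.48), -0.39 ± 0.26 in droughted leaves (adjusted p = 0.452) and -0.69 ± 0.26 in control stomata (adjusted p = 0.45), none past the threshold. In droughted stomata it was 0.53 ± 0.29 (adjusted p = 1) with all arrays and 0.071 without that array (adjusted p = 1). Of all probes, 0.398% were called in control leaves, 0.268% in droughted leaves, 0.0587% in control stomata and 0.0196% in droughted stomata.

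The late anthocyanin genes, a list of 11 that includes the best-known targets of the complex, rose in the same 4 comparisons. Of the 11, 6 were called higher in Col-0 leaves, 7 in bam1 leaves, 6 in Col-0 stomata and 8 in bam1 stomata, and 0 were called lower. The count in Col-0 stomata was 6 as well without the doubtful array. Their median log2 changes were 2.55, 3.10, 3.04 and 4.30, while the medians of all tested probes were -0.014, 0.0072, 0.016 and 0.027. Setting genes whose controls were not well above background at their bound left the late gene medians the same to 2 decimals. The median gene each time was UGT75C1, well above background on every control array, so this does not test the unmeasured controls. Without the doubtful array the median in Col-0 stomata was 3.78.

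GSTF12, the glutathione transferase TT19 that carries anthocyanins to the vacuole, was well above background on no control leaf array and on every droughted array. Its measured rise was 116-fold in Col-0 leaves (adjusted p = 5.11e-06) and 168-fold in bam1 leaves (adjusted p = 8.32e-07). These are not lower limits, since the control signals were not well above background. In stomata, where the control arrays did measure it, its log2 change was 5.08 ± 0.50 in Col-0 and 7.25 ± 0.54 in bam1. A second tested probe for GSTF12 changed less in leaves. Its log2 change was 1.15 in Col-0 leaves (adjusted p = 0.0496) and 0.38 in bam1 leaves, not called (adjusted p = 0.504). With all arrays it was 3.36 in Col-0 stomata and 4.47 in bam1 stomata, both called. DFR was measured on 1 of 3 Col-0 control leaf arrays and on none of bam1, and it rose by a log2 change of 3.85 ± 1.02 in Col-0 leaves (adjusted p = 0.0212) and at least 29.65-fold in bam1 leaves (adjusted p = 0.00119). Its log2 change in stomata was 5.46 ± 1.02 in Col-0 and 6.61 ± 1.12 in bam1. LDOX, not measured in control leaves or in Col-0 control stomata, rose at least 12.4-fold in Col-0 leaves (adjusted p = 0.00162), at least 12.5-fold in bam1 leaves (adjusted p = 7.23e-04) and at least 41.6-fold in Col-0 stomata (adjusted p = 5.85e-04). In bam1 stomata, with 1 of 2 control arrays well above background, its log2 change was 5.88 ± 0.81. UF3GT, which adds xylose to the pigment's glucose, was not well above background in control leaves. Its difference as measured was 33.1-fold in Col-0 leaves (adjusted p = 3.81e-05), and it rose at least 50.9-fold in bam1 leaves (adjusted p = 6.1e-06). In stomata it rose by a log2 change of 3.14 ± 0.52 in Col-0 and 5.00 ± 0.57 in bam1.

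The doubtful array had less of each of these 4 transcripts than the other droughted array of Col-0 stomata. Its log2 signal was 11.51 against 12.8 for GSTF12, 9.57 against 11.9 for DFR, 6.57 against 9.27 for LDOX and 9.98 against 11.3 for UF3GT. Without it the log2 changes in Col-0 stomata were 5.75 for GSTF12 (adjusted p = 8.58e-05), 6.62 for DFR (adjusted p = 0.00676) and 3.78 for UF3GT (adjusted p = 0.00301), and LDOX rose at least 105.9-fold (adjusted p = 1.68e-04). The glucosyltransferase UGT78D2, which also serves flavonols, was called only in bam1 stomata (1.07 ± 0.29; adjusted p = 0.0258). SCPL10, BGLU10 and 3AT1 were not called in any of the 4.

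**Figure D4:**
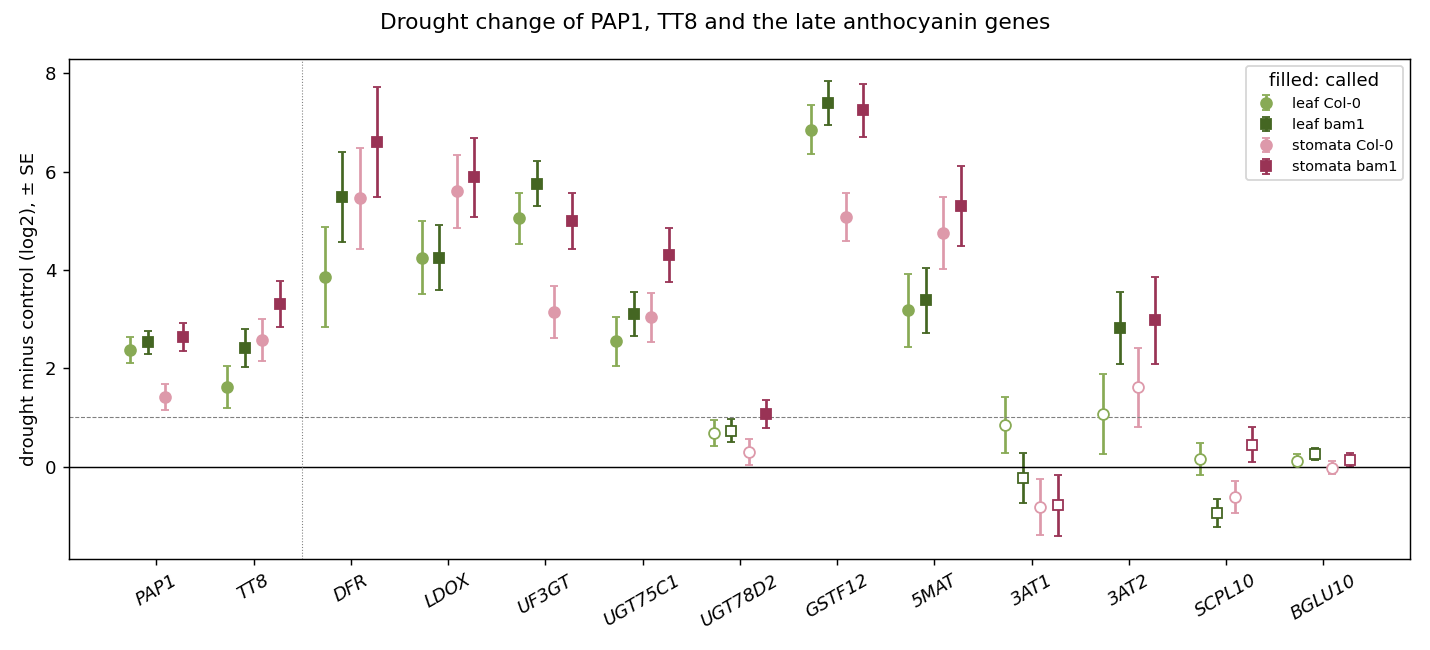
Log2 drought change (drought minus control, ± SE) of PAP1, TT8 and the 11 late anthocyanin genes for both tissues of Col-0 and bam1; filled symbols were called higher, open symbols were not, and the dashed line marks 2-fold. Of the 11 late genes, 6 to 8 are filled in each comparison. Where a control group had no array well above background, the point is the measured difference, and the text gives folds for the genes it names.

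Of 8 other MYB, bHLH and WD40 partners, 5 were tested and 0 were called under drought in any of the 4 comparisons. In Col-0 stomata, MYB23, one of these 5, had its only droughted value on the doubtful array, and 0 of the other 4 were called without that array. Among 6 other R3-MYB genes, relatives of CPC that act in trichome patterning, ETC3 rose (log2 change 1.23 ± 0.23; adjusted p = 0.00252) and TCL2 fell (-1.23 ± 0.31; adjusted p = 0.0164) in Col-0 leaves. TCL1 (-1.28 ± 0.33; adjusted p = 0.0203) and TCL2 (-1.02 ± 0.28; adjusted p = 0.0248) fell in bam1 leaves. None of the 6 was called under drought in stomata, with or without the doubtful array. In control plants 3 of these 6, TRY, ETC1 and ETC3, were called higher in stomata than in leaves in both genotypes, as CPC was. GL2 and TTG2, epidermal targets of the related trichome complex, were also higher in control stomata, by log2 differences of 2.23 and 2.40 in Col-0 and of 2.11 and 2.21 in bam1.

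Of 10 other genes known to repress anthocyanin synthesis, 2 rose and 1 fell in Col-0 leaves, 1 rose and 1 fell in bam1 leaves and in bam1 stomata, and 1 fell in Col-0 stomata. LBD38, a nitrogen-responsive repressor of PAP1 and PAP2, was the one that fell each time, by a log2 change of -1.72 ± 0.28 in Col-0 leaves, -1.36 ± 0.25 in bam1 leaves, -1.45 ± 0.28 in Col-0 stomata and -1.32 ± 0.31 in bam1 stomata. Its change in Col-0 stomata was -1.32 without the doubtful array (adjusted p = 0.0429). MYB7 rose by 1.71 ± 0.18 in Col-0 leaves, 1.67 ± 0.16 in bam1 leaves and 1.11 ± 0.20 in bam1 stomata, and MYB32 by 1.26 ± 0.29 in Col-0 leaves. LBD37 was read by 2 tested probes in Col-0 leaves, of which the one standing for the gene fell short of 2-fold (-0.92; adjusted p = 0.0015) and the other was called lower (-1.01; adjusted p = 0.0116). Of 5 light signalling and other activators, PIF3 rose in Col-0 leaves (1.16 ± 0.15; adjusted p = 2.41e-04) and 0 were called in the other 3 comparisons.

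Under drought in leaves, 1 guard cell marker rose and 1 epidermis marker fell in Col-0, and 1 epidermis and 1 vascular marker fell in bam1, of 26 markers of 4 cell types. Under drought in stomata, 0 of 10 guard cell, 0 of 5 mesophyll and 0 of 5 epidermis markers were called in either genotype. Of 6 vascular markers, 2 rose in both genotypes, the sucrose exporters SWEET11 (1.18 ± 0.18 in Col-0; 1.04 ± 0.20 in bam1) and SWEET12 (1.95 ± 0.24; 1.69 ± 0.27), and 1 fell in bam1. Without the doubtful array the Col-0 values were 1.34 and 2.13, both called, and the guard cell marker KAT2 was then called lower (-1.01; adjusted p = 0.014). The summed log2 signal of the 6 vascular markers was 16.1 to 16.5 in control and 16.4 to 16.7 in droughted Col-0 stomata, and 15.9 to 16.6 in control and 16.7 to 16.9 in droughted bam1 stomata. Their part in the rise of PAP1 and TT8 was not tested.

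The genes whose signal followed each regulator most closely over the 20 arrays were found among 8409 genes, as a description. The arrays share tissue, treatment and slide, and each droughted group raises many genes together. PAP1 was followed most closely by HSFA6A, a heat shock factor (Pearson r = 0.977), GSTF12 (0.967) and APL3, a large subunit of ADP-glucose pyrophosphorylase (0.967). TT8 was followed by UGT75C1, which adds glucose to anthocyanins (0.941), DFR (0.935) and GSTF12 (0.931). MYBL2 was followed by DEAR2 (0.950), PRE1 (0.934) and GSTU18 (0.932), and CPC by PDLP1 (0.972), GDAP1 (0.971) and SHA (0.966). The closest genes to EGL3 and TTG1 reached only 0.718 (GTG2) and 0.805 (XIK). Over the 19 arrays without the doubtful one, r was 0.978 for PAP1 with HSFA6A, 0.944 for TT8 with UGT75C1, 0.952 for MYBL2 with DEAR2, 0.971 for CPC with PDLP1 and 0.726 for EGL3 with GTG2, each still the closest, while XIK, at 0.780, came second for TTG1.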

How the data were processed

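The authors measured RNA on Agilent one-colour arrays. The deposited scanner files hold intensity values, made with Agilent's Feature Extraction (version 11.5.1.1) by background subtraction and detrending, and flags (other columns, per the file headers) for outlying, saturated and well-above-background spots. The deposited value table holds log2 values that the authors had quantile-normalised and median-centred. Differences of the other arrays from one array, over the tested probes, were compared between this table and the scanner signals as normalised here. They correlated at r of 0.986 to 1.

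Outlying spots were set to missing, and processed signals were log2-transformed, quantile-normalised over 20 arrays and averaged per probe. The tests covered 30665 of 43603 probes, each well above background throughout at least 1 group. Probes were named by transcript from a RefSeq table (TAIR10.1), which matched 78.8%. The probe with the highest mean stood for a gene. The spread between arrays limits the precision, with 12 residual degrees of freedom.

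Group means were fitted with limma 3.58.1 and its eBayes step (R 4.3.3), and called at an adjusted p under 0.05 and at least 2-fold. The fit was tested on simulated data. Figures were drawn with matplotlib 3.10.9. The members and lists were chosen with earlier results of these data known. All 10 regulators are named with every probe, at most 4 called genes of each other list in a comparison, and the 3 genes closest to each regulator by Pearson r. Alternatives were a 75th-percentile shift, a normexp correction (offset 50, on the median signal in place of the mean), the value table, no filter, only the groups compared, the slide or the replicate number as a block, the methods' t-test (equal variances) and leaving out each array. Values of the other lists and of the closest genes without one stomata array were added after seeing the data. The title, not the source name, gave the replicate of one stomata array whose labels disagree.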

Additional observations from a re-analysis of the deposited data

Results flagged for a closer look

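The second probe for EGL3, which was left out of the tests because it was not well above background on every array of any group, was nevertheless well above background on leaf bam1 drought replicate 2, at a log2 signal of 5.67. No control leaf array was, with signals of 3.70 to 3.78 in bam1. It was also well above background on stomata bam1 control replicate 1, at 5.50. The first EGL3 probe was not well above background on any droughted bam1 leaf array, so the probes differ on replicate 2. On replicates 1 and 3 neither probe was well above background.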

How the results depend on the processing

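Over 84 changes, 6 genes in each of 14 comparisons, 1254 values were recomputed: 1167 kept their direction and call, 24 of 184 values of called changes lost the call, 7 gained one, and 56 turned sign, none of them of a called change. In Col-0 leaves, Col-0 stomata and bam1 stomata, the called regulators numbered 1, 0 and 0 when only the groups compared were fitted, and 0, 0 and 0 by the methods' t-test after adjustment (1 in bam1 leaves, 0 for stomata against leaves of bam1). Those settings leave few residual degrees of freedom: by that t-test 0 probes were called among all in Col-0 stomata, where 1083 passed unadjusted. With normexp, 1 was called in bam1 leaves and 1 in Col-0 stomata, and with the slide as a block 1 in bam1 leaves and 1 for stomata against leaves of bam1. Leaving out arrays gave 1 to 2 in Col-0 stomata (main count 2), 2 to 3 in Col-0 leaves and bam1 stomata and 2 in bam1 leaves. No slide held control and droughted stomata of one genotype, so within-slide values could not be had there. Each tested regulator had only 1 tested probe, so calling a gene on any of its tested probes could not change the counts.

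Signs turned as follows. EGL3 in Col-0 leaves became 0.14 under 75th-percentile scaling, 0.057 with normexp, 0.22 with the slide as a block and 0.091 with the replicate block, and ranged from -0.13 to 0.087 without single arrays. TTG1 in bam1 leaves became 0.070 with normexp and ranged from -0.10 to 0.011 without single arrays. CPC in bam1 leaves ranged from -0.27 to 0.23 without single arrays. The tissue difference of PAP1 in bam1 became -0.015 under 75th-percentile scaling and ranged from -0.26 to 0.48 without single arrays. With the slide as a block, the genotype difference of the PAP1 response in leaves became -0.47, and PAP1 in bam1 against Col-0 control leaves became 0.044. The cause was not tested.

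Replicate numbers did not pair the samples: control and drought arrays of one number deviated together at r of -0.26 to 0.16 in 9 pairs. The replicate block left the counts at 3, 2, 2 and 2 in the 4 drought comparisons.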
